A study of Mus musculus with 18 samples.

Results

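The mitochondrial respiratory chain and the ATP synthase are built from 5 multi-subunit complexes, and most of their subunits are encoded in the nucleus. The 85 genes described here were chosen by symbol (Nduf, Sdha to Sdhd, Uqcr, Cox4 to Cox8 and Atp5) and selected on a mean raw count of at least 100 over 18 RNA-seq libraries, from a table of 24421 genes. They comprise 35 subunits of complex I, 4 of complex II, 8 of complex III, 12 of complex IV and 15 of complex V. The remaining 11 are 7 complex I assembly factors (Ndufaf genes), 3 complex II assembly factors (Sdhaf genes) and Atp5sl. Atp5sl is named Dmac2 in RefSeq. It was included by its older symbol alone and is not counted with any complex here. All 85 passed the filter on low counts and were tested. The rule itself used only the symbol and the mean over all libraries. It was set with earlier results of these data known, so the choice is not independent of the differences between groups.

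The cells were the breast carcinoma line 4T1 (mouse strain BALB/cfC3H, genotype given as wild type) and its derivatives 4T1R1 and 4T1R2, selected for survival of the HSP90 inhibitor 17-DMAG. Each population was sequenced untreated and after 17-DMAG, in 3 libraries per group (6 groups). The sample records give 1.5 µM for 48 h as the exposure and 3 rounds of drug as the selection, whereas the series text places RNA isolation 2 h after treatment. Both resistant populations are selected derivatives of 4T1 and not engineered mutants. The library identifiers of 4T1R1, untreated and treated, form a series apart from those of 4T1 and 4T1R2, so population and library series cannot be told apart wherever 4T1R1 is set against 4T1. In treated 4T1, libraries 1 and 2 agreed within about sampling noise (chi-square per gene 1.1, against 2.04 to 2.22 in the 17 other replicate pairs). They were averaged and counted as 1 sample, which left n = 2 for that group and n = 3 for the others. Total counts ranged from 23354461 to 55094630 per library, and the 85 genes held 0.714% to 0.826% of them. Summed epithelial markers reached 1710 to 2510 CPM (counts scaled to library size), against 4.33 to 7.26 for leukocyte, 0.06 to 0.581 for endothelial, 10.8 to 33.5 for fibroblast, 0 to 0.0667 for adipocyte and 0 to 0.666 for muscle markers.

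Electrons enter the chain from NADH at complex I and from succinate at complex II, pass through complex III and cytochrome c to complex IV, where oxygen is reduced, and the proton gradient built on the way drives ATP synthesis by complex V. Each complex combines catalytic subunits with accessory subunits that support assembly and stability. Some complex IV subunits exist as alternative isoforms, several of them restricted to muscle, testis or lung. Nuclear respiratory factor NRF1 and the ETS factor GABP (also called NRF2) are known activators of many of these genes.

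Next to the threshold, the lowest genes inside it were the assembly factors Sdhaf4, Sdhaf1 and Ndufaf3, with mean raw counts of 163, 170 and 171. The nearest genes outside were Atp5s, Sdhaf3 and Ndufa4l2, with 89.9, 65 and 13.7. The tissue-restricted isoforms Cox7a1, Cox4i2, Cox6a2, Cox8b, Cox6b2 and Cox7b2 had mean counts of 10.7, 5.06, 3.89, 3.39, 0.5 and 0.333. Cox8c and the complex I subunit Ndufs5 were listed at 0 in all 18 libraries. Ndufs5 is a general subunit of complex I, and its listing at 0 is not read as absence of expression. Thus the isoforms Cox4i1, Cox6a1, Cox6b1, Cox7a2, Cox7a2l and Cox8a carried nearly all counts of their families. The subunits encoded by mitochondrial DNA were not analysed here.

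Promoter motifs were counted, and the choice by symbol and count did not use them. The choice did require a mean count, whereas the comparison was with all promoters, whether or not the gene was expressed. Promoters matched for expression were not counted, so the part of expression level in these shares was not tested. RefSeq promoter sequences (GRCm38.p6, 250 bases before to 50 after the start site) were found for 73 of the 85 genes. Searched on both strands, the NRF1 core GCATGCGC occurred in 16.4% of them, against 2.8% of 27025 promoters. A 10-letter NRF1 pattern with 1 free base, which was searched first and given up only because of its length, occurred in 24.7% against 4.78%. The ETS core CCGGAAG occurred in 24.7% against 9.12%, and the YY1 core AAGATGGC in 13.7% against 2.88%. The E-box CACGTG (9.59% against 7.24%) and the heat shock pattern GAANNTTC (5.48% against 7.95%) stood closer to the share of all promoters. These shares are descriptions, and a match does not show that a factor binds. The promoters of 3 genes that differed between groups are shown, chosen because each holds the NRF1 core, up to the base before the start site, 5′ to 3′ on the gene's strand, with motif matches in capitals (NRF1 in all 3, where overlapping matches on both strands give the longer run, and ETS in Cox6a1). Matches to the 10-letter pattern alone, such as a further one in Cox6a1, are not marked. They lie at chr5:108434400-108434569 (minus strand), chr4:24897913-24898082 (plus strand) and chr5:115348959-115349128 (minus strand).
Atp5k: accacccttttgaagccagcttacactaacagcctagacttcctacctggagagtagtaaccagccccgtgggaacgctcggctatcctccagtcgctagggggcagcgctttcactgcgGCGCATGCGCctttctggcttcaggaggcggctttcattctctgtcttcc
Ndufaf4: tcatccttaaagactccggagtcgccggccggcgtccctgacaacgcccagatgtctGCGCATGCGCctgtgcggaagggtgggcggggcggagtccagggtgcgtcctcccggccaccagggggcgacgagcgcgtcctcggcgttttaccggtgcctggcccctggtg
Cox6a1: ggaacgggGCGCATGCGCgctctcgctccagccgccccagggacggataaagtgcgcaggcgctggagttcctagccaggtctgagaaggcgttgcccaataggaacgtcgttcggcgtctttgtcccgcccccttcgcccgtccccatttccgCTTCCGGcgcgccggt

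Levels in untreated 4T1 were compared per length, as CPM per kb of exon. The median over subunits was lowest for complex I (46.8 CPM per kb) and highest for complex IV (143), with 74 for complex II, 97.6 for complex III and 113 for complex V. Within complex V, Atp5b, the catalytic beta subunit, reached 502 CPM per kb. Atp5g1, Atp5g2 and Atp5g3 encode the same mature c subunit. The exon length taken for Atp5g1 (4778 bp) exceeds its RefSeq gene span (2902 bp), so its value of 9.26 CPM per kb is not read as a level. With the shortest RefSeq-paired transcript as the length, an alternative added after seeing the data, the values were 74.2 for Atp5g1, 66.4 for Atp5g2 and 305 for Atp5g3, and the medians of the complexes were 49.5, 74, 97.8, 143 and 113. Ndufb9, an accessory complex I subunit, had the highest level of its complex at 255 CPM per kb, and Ndufab1, the mitochondrial acyl carrier protein, the lowest at 10.5. In complex IV the extremes were Cox6c (364; with the shortest transcript Cox4i1, at 368) and Cox7a2l (73.1), in complex III Uqcrc1 (125) and Uqcrq (33.1), and in complex II Sdhd (104) and Sdhc (26.6).

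**Figure D1:**
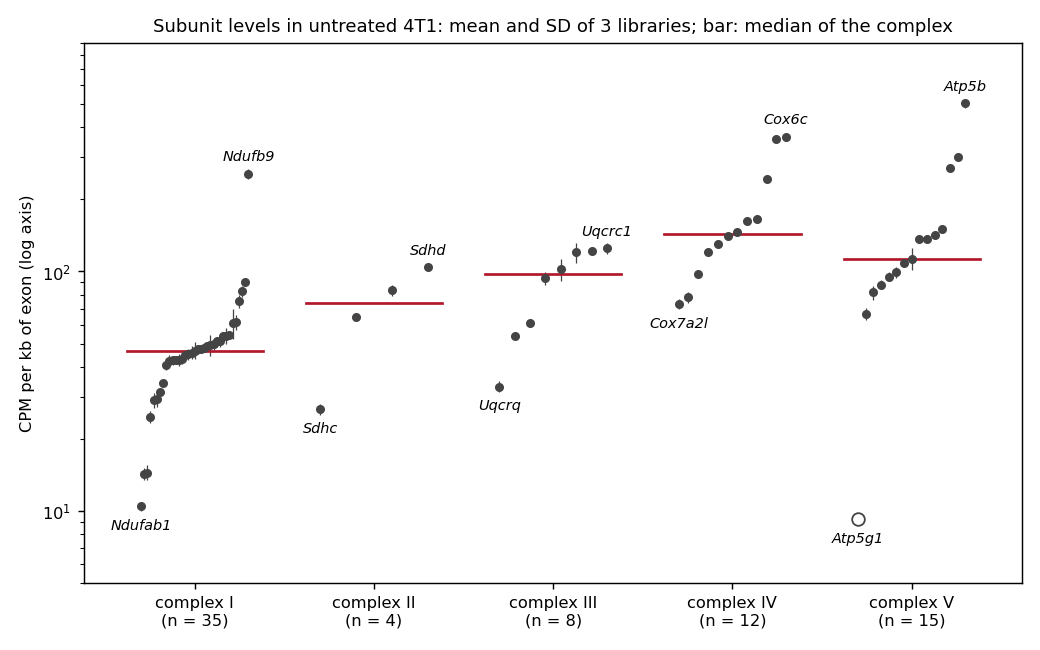
Level of each subunit in untreated 4T1, in CPM per kb of exon on a log axis, by complex. Points are means and error bars SD of 3 libraries, red bars are medians; the medians run from 46.8 in complex I to 143 in complex IV, and Atp5b at 502 is the highest point. The open point, Atp5g1, rests on an exon length above the gene's span.

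Across the 6 groups the highest group mean exceeded the lowest by a median factor of 1.27. The factor exceeded 1.5 in 5 genes and 2 in 1 gene, Ndufb9. Of the 85 genes, 17 (20%) passed the test in none of the 5 comparisons of groups, against 23% of all genes tested.

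In untreated 4T1R1, more of the genes were lower than higher against untreated 4T1. By edgeR's quasi-likelihood test at adjusted p under 0.05, 29 of the 85 genes were lower (27.5% of all 13507 genes tested were). A further 12 were higher (25.2% of all genes), and the median log2 fold change was -0.04, against 0.01 over all genes. Among the 10348 genes tested with a mean raw count of at least 100, 33.7% were lower and 26.4% higher (median -0.025). The share of the set that was lower, 34.1%, was near that share. The share that was higher, 14.1%, was below it. Complex V held 9 lower and 3 higher of 15 subunits (median -0.15), complex IV 6 lower and 3 higher of 12 (median -0.09), complex I 10 lower and 3 higher of 35 (median -0.04), complex III 1 lower and 2 higher of 8, and complex II 1 lower and 0 higher of 4. Scaled by total counts without the ribosomal RNA precursor Rn45s, which took 9.54% to 15.6% of the counts, the split was 21 lower and 24 higher. Of all genes, 20% were then lower and 33.8% higher, and the median of the set minus that of all genes was unchanged at -0.05. Without untreated 4T1 library 1, 7 genes were higher.

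The largest decrease was in Atp5k, the e subunit of the ATP synthase membrane part (chr5:108433246-108434399), whose promoter is shown above. Its level was 38.3, 37.3 and 34.7 CPM in untreated 4T1, 23.1, 22.5 and 21.7 in untreated 4T1R1 and 26.9, 31.3 and 27.5 in untreated 4T1R2. The 3 populations did not overlap, and 4T1R1 was lowest. The log2 fold change was -0.71 ± 0.06 (SE, adjusted p = 1.9e-12) in 4T1R1 and -0.37 ± 0.06 (adjusted p = 5.3e-06) in 4T1R2. Atp5j2, the f subunit of the same membrane part (chr5:145183704-145191541), measured 82.6, 81.5 and 88.5 CPM in untreated 4T1 and 66.5, 58.9 and 57.3 in untreated 4T1R1. The groups did not overlap (log2 fold change -0.47 ± 0.05, adjusted p = 2.6e-10). The 4T1R2 libraries, at 79.2, 72.3 and 76, lay between them (-0.15, adjusted p = 0.012).

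Of the 11 genes that are not subunits, 2 were lower and 1 higher in each resistant population (medians -0.01 in 4T1R1 and 0.01 in 4T1R2). These shares, 18.2% and 9.09%, were below those of all genes. The 2 that were lower in 4T1R1, Ndufaf2 and Ndufaf4, were among its largest decreases. Ndufaf2, a complex I assembly factor, was lower in 4T1R1 (-0.46 ± 0.1, adjusted p = 0.00016) and gave 0.01 in 4T1R2 (adjusted p = 0.94). Ndufaf4, another complex I assembly factor, measured 46.7, 39.7 and 38.8 CPM in untreated 4T1, 30.7, 27.7 and 34.8 in 4T1R1 and 34.1, 33.6 and 33.9 in 4T1R2. Every resistant library lay below every parental one, with log2 fold changes of -0.42 (adjusted p = 9.3e-07) and -0.3 (adjusted p = 0.00022).

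The genes with the largest increases in 4T1R1 were Ndufb2, an accessory complex I subunit, Atp5sl and Ndufa4, counted here with complex IV. Ndufb2 measured 12.5, 14.3 and 13.2 CPM in untreated 4T1 and 18.2, 18.5 and 17.2 in 4T1R1 (log2 fold change 0.43 ± 0.08, adjusted p = 1.4e-05), and Atp5sl rose by 0.37 (adjusted p = 0.0016). These groups did not overlap for either gene. Among the catalytic and core subunits, Ndufs1 (-0.2), Ndufs8 (-0.2), Cox4i1 (-0.22), Cox5a (-0.12) and Atp5a1, the alpha subunit of ATP synthase (-0.19), were lower, and Uqcrc1 (0.13) and Atp5b (0.16) were higher. Ndufs3, Ndufs7, Ndufv1, Ndufv2, Sdha, Sdhb, Uqcrfs1 and Cox5b did not pass the test in 4T1R1, with log2 fold changes from -0.06 to 0.08. Of the isoforms, Cox6a1 (-0.27), Cox7a2 (-0.24), Atp5g2 (-0.3) and Atp5g3 (-0.2) were lower and Cox7a2l (0.13) and Cox8a (0.21) higher. Atp5g1 gave 0.12 (adjusted p = 0.081) and Cox6b1 gave -0.06 (adjusted p = 0.2).

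Untreated 4T1R2 showed the opposite balance to 4T1R1 in these counts: 37 genes were higher than in untreated 4T1 (25.6% of all genes tested were) and 10 lower (26.9% of all genes), with a median log2 fold change of 0.1 against 0.01 over all genes. Among tested genes with a mean raw count of at least 100, 28.4% were higher and 32.4% lower in 4T1R2. Both comparisons share the untreated 4T1 libraries, and no test was made of the difference between the resistant populations. Complex I held 17 higher and 3 lower of 35 subunits (median 0.14), complex V 8 higher and 3 lower of 15 (0.15), complex III 4 higher and 0 lower of 8 (0.12), complex II 2 higher and 1 lower of 4 (0.13), and complex IV 5 higher and 1 lower of 12 (0.04). Of the complex I subunits, 3 of 7 core and 14 of 28 accessory subunits were higher. Without untreated library 3 of 4T1, or library 2 of 4T1R2, 6 genes were lower.

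The genes with the largest increases in 4T1R2 were Ndufc1 and Ndufa5, accessory complex I subunits, and Ndufa4. Ndufa4 measured 87.6, 89.5 and 90.7 CPM in untreated 4T1, 111, 99.4 and 101 in 4T1R1 and 123, 124 and 125 in 4T1R2. The 3 populations did not overlap, and the log2 fold changes were 0.22 ± 0.04 (adjusted p = 1.4e-05) and 0.47 ± 0.04 (adjusted p = 3e-13). Ndufc1 was at 17.7, 17.6 and 22.5 CPM in 4T1 and 27.6, 25.7 and 27.5 in 4T1R2 (0.48 ± 0.08, adjusted p = 3.7e-06). Ndufa5 rose from 25, 23.8 and 27.3 to 35.6, 34.4 and 33.5 CPM (0.44 ± 0.06, adjusted p = 1.2e-07). Of the core subunits, Atp5b (0.33), Uqcrc1 (0.24), Ndufv1 (0.18), Sdha, the flavoprotein of succinate dehydrogenase (0.17), Ndufs7 (0.16), Cox5b (0.15) and Ndufv2 (0.13) were higher, and Ndufs1 (-0.28), Cox4i1 (-0.13) and Atp5a1 (-0.06) lower. Ndufs3, Ndufs8, Sdhb, Uqcrfs1 and Cox5a did not pass, with values from -0.03 to 0.09. Thus the alpha and beta subunits of the ATP synthase head moved in opposite directions in both resistant populations, although Atp5a1 barely passed in 4T1R2 (adjusted p = 0.047).

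Ndufb9 (chr15:58933801-58939516) stood apart from the rest. It measured 173, 190 and 175 CPM in untreated 4T1, 134, 134 and 137 in 4T1R1 and 69.7, 64.3 and 66.5 in 4T1R2. The populations did not overlap. The log2 fold change was -1.42 ± 0.04 in 4T1R2 (adjusted p = 8.8e-29) and -0.41 ± 0.04 in 4T1R1 (adjusted p = 3.4e-12). After 17-DMAG it measured 187 and 182 CPM in 4T1, 127, 126 and 127 in 4T1R1 and 68.1, 62.8 and 69.9 in 4T1R2, so the order was the same with the drug.

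Neighbours of Ndufb9 on chromosome 15 were examined after its value was seen. Of 15 other genes within 1 Mb with a mean raw count of at least 100, 12 were lower and 2 higher in 4T1R2 (median -0.49), and 7 were lower and 4 higher in 4T1R1 (median -0.18). In 4T1R2 the adjacent Tatdn1 gave -1.55, Rnf139 -1.07, Atad2 -1.08 and Mtss1 -0.64, whereas Nsmce2 gave 0 and Trib1 rose by 0.25. Around Atp5k, 11 of 17 neighbours were lower in each resistant population and 0 were higher. Around Atp5j2, 8 of 14 neighbours were lower in 4T1R1, among them Arpc1b (-0.6), Pdap1 (-0.54) and Bud31 (-0.46). Over the 75 genes of the set with at least 5 such neighbours, the gene's log2 fold change and the median of its neighbours correlated with Pearson's r = 0.588 in 4T1R1 (Spearman's rho 0.456) and 0.588 in 4T1R2 (rho 0.536), and 0.509 in 4T1R2 without Ndufb9. These genes share libraries and some share neighbours, so the correlations are descriptions, and the part of genomic position or copy number in the differences was not tested.

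**Figure D2:**
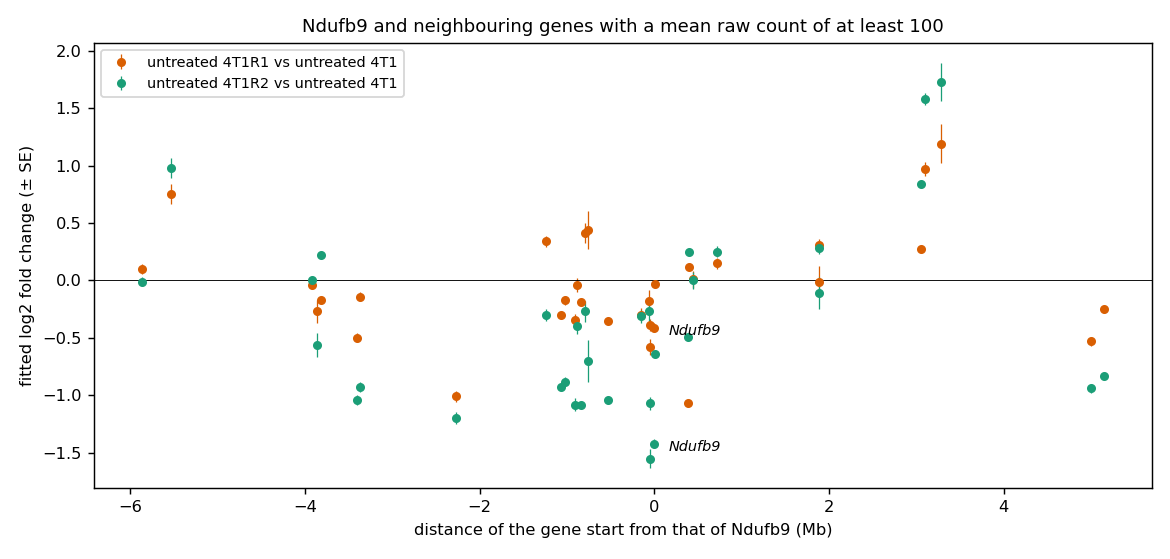
Fitted log2 fold change with SE of Ndufb9 and of tested genes with a mean raw count of at least 100 within 6 Mb, by distance of the gene start in Mb, for untreated 4T1R1 (orange) and 4T1R2 (green) against untreated 4T1. Ndufb9 lies at -0.41 and -1.42, and most genes within 1 Mb on its left also lie below 0 in 4T1R2.

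**Figure D3:**
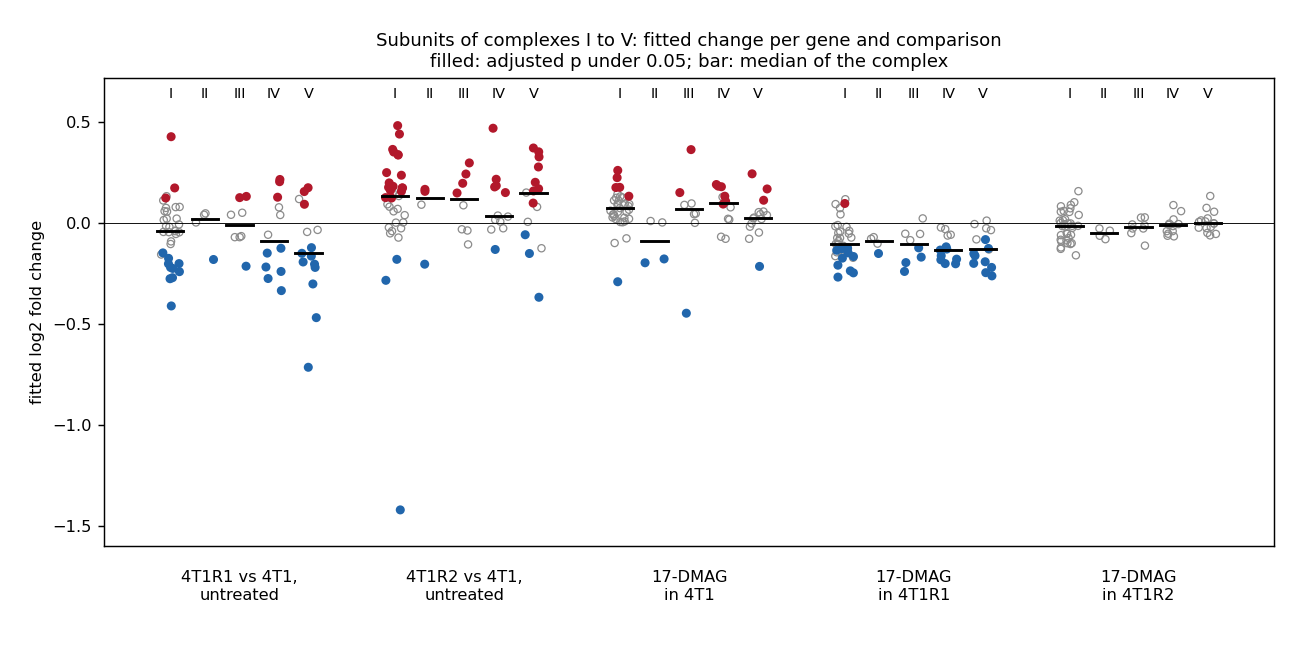
Fitted log2 fold change of each of the 74 subunits (points) in the 5 comparisons, by complex. Red and blue points passed the test as higher and lower, open points did not, and bars are medians; the lowest point is Ndufb9 in 4T1R2 at -1.42, and no subunit passed in 4T1R2 after 17-DMAG.

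In parental 4T1, 17-DMAG raised 18 of the 85 genes (18.4% of all genes tested rose) and lowered 5 (17.9% of all genes fell), with a median log2 fold change of 0.05 against 0 over all genes. Among tested genes with a mean raw count of at least 100, 22.7% rose and 21.9% fell. The share of the set that rose was near the background, and the share that fell, 5.88%, was below it. Complex IV held 6 of the higher subunits and none lower among 12 (median 0.1), complex I 5 higher and 1 lower of 35 (0.08), complex V 3 higher and 1 lower of 15 (0.03), complex III 2 higher and 1 lower of 8 (0.07), and complex II 0 higher and 2 lower of 4 (-0.09). This balance depended on scaling. With total counts alone, which placed the median of all genes at -0.11, 1 gene was higher and 13 lower (8.83% and 32% of all genes). Without Rn45s in the totals 4 were higher and 10 lower (11.9% and 26.4% of all genes). The median of the set minus that of all genes stayed at 0.05 under each. Leaving out treated library 3 leaves 1 treated sample, since libraries 1 and 2 count as 1, so the calls of that fit are not given. Without untreated library 1, 11 genes were higher.

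In 4T1 the genes with the largest changes on 17-DMAG, in opposite directions, belonged to complex III. Uqcrq, a small subunit next to cytochrome b, measured 48.2, 53.1 and 49.7 CPM untreated and 64.7 and 64.9 after 17-DMAG. The groups did not overlap (log2 fold change 0.36 ± 0.05, adjusted p = 4.3e-07). Uqcrh, the hinge protein near cytochrome c1, measured 67.1, 64.5 and 67.9 CPM untreated and 48.7 and 48.9 treated, again without overlap (-0.45 ± 0.05, adjusted p = 3.3e-09). Atp5sl (0.28, adjusted p = 0.041) and Ndufa6 (0.26, adjusted p = 0.0043) also rose, and Ndufv3 (-0.29, adjusted p = 0.0037) and Atp5k (-0.21, adjusted p = 0.013) fell. Without treated library 3, which leaves 1 treated sample, Atp5sl gave 0.27 and Atp5k -0.2. Without untreated library 1 neither gene passed (0.25 and -0.18). Sdha fell from 185, 186 and 190 CPM to 162 and 165 (-0.2, adjusted p = 6.2e-06), and Atp5b (0.11), Uqcrc1 (0.15), Cox4i1 (0.11), Ndufs7 (0.18) and Cox8a (0.18) rose.

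In 4T1R1 the drug lowered 32 of the 85 genes (14.3% of all genes tested fell) and raised 2 (13.9% of all genes rose), with a median log2 fold change of -0.1 against -0.01 over all genes. The decrease reached 8 of 12 subunits of complex IV (median -0.13), 9 of 15 of complex V (-0.13), 4 of 8 of complex III (-0.1), 1 of 4 of complex II (-0.09) and 10 of 35 of complex I (-0.1), and no subunit rose outside complex I. Among tested genes with a mean raw count of at least 100, 17.9% fell and 17.5% rose. With total counts alone 16 genes fell and 2 rose (9.74% and 17.4% of all genes). Without Rn45s in the totals 42 fell and 1 rose (17.9% and 11.1% of all genes). The median of the set minus that of all genes stayed at -0.09 under each. Without treated library 1, 21 genes passed in place of 34. Of the complex I subunits that fell, all 10 were accessory, and 0 of 7 core subunits fell.

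The genes with the largest decreases in 4T1R1 were the accessory complex I subunits Ndufb7 (-0.27, adjusted p = 0.00037) and Ndufv3 (-0.25, adjusted p = 0.0079), and Atp5k. Ndufv3 no longer passed without untreated library 2 of 4T1R1 (-0.21). Atp5k measured 23.1, 22.5 and 21.7 CPM untreated and 18.3, 20.2 and 17.5 treated, with no overlap (-0.26 ± 0.07, adjusted p = 0.0034). Cox8a, a small complex IV subunit, measured 154, 159 and 153 CPM untreated and 139, 130 and 136 treated, again with no overlap (-0.2 ± 0.04, adjusted p = 0.00016). Uqcrq, which the drug raised in 4T1, went from 56.8, 55.6 and 53.1 to 45.4, 48.1 and 46.8 CPM (-0.24 ± 0.05, adjusted p = 0.00024). Of the 85 genes, 8 were higher after the drug in 4T1 and lower in 4T1R1 (0.785% of all genes tested were). A further 4 were lower in both (8.17% of all genes), 1 was higher in both (8.09%) and 41 passed in neither (53%). These joint counts belong to the main scaling. With total counts alone 1 gene was higher in 4T1 (8.83% of all genes). Without Rn45s in the totals 4 were (11.9% of all genes). The opposite calls were then fewer under both.

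Ndufaf4 rose on the drug in all 3 populations. In 4T1R1 it measured 30.7, 27.7 and 34.8 CPM untreated and 40.8, 40.4 and 44.5 treated (0.43 ± 0.07, adjusted p = 3.4e-06), in 4T1R2 34.1, 33.6 and 33.9 against 40.9, 41.8 and 38.4 (0.25 ± 0.07, adjusted p = 0.0088), and in 4T1 46.7, 39.7 and 38.8 against 48.5 and 46.6 (0.19 ± 0.07, adjusted p = 0.032). The groups overlapped in 4T1 but not in the resistant populations, and 1 library of untreated 4T1 set that overlap. Ndufs1, a core subunit that carries iron-sulfur clusters, rose by 0.1 in 4T1R1 (adjusted p = 0.033), a call that was lost on leaving out untreated library 1 or 3 or treated library 1 or 2 (0.08 to 0.11).

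In 4T1R2, 17-DMAG raised 1 of the 85 genes (6.18% of all genes tested rose) and lowered 0 (4.35% of all genes fell), and the median log2 fold change was -0.01. Among tested genes with a mean raw count of at least 100, 7.93% rose and 5.34% fell. The gene raised was Ndufaf4, and without treated library 2 it no longer passed (0.23). All 74 subunits lay between -0.16 and 0.16, and none passed.

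Differences between the responses were tested directly. The response of 4T1R1 was lower than that of 4T1 in 26 of the 85 genes (9.08% of all genes tested) and higher in 2 (9.16% of all genes), with a median difference of -0.14 on the log2 scale against 0 over all genes. Complex IV held 9 of the lower subunits of 12 (median -0.21), complex I 7 of 35, complex V 6 of 15 and complex III 3 of 8. The response of 4T1R2 was lower than that of 4T1 in 9 genes (8.16% of all genes) and higher in 3 (9.62% of all genes), with a median difference of -0.05. Among tested genes with a mean raw count of at least 100, 11.5% had a lower response in 4T1R1 and 11.6% a higher one. In 4T1R2 these shares were 10.2% lower and 12.2% higher. The share of the set with a lower response in 4T1R2, 10.6%, was near the former. Both differences share the parental 4T1 libraries. With total counts alone the first count became 4 lower and 7 higher (3.1% and 26.2% of all genes). The second became 2 lower and 5 higher (4.68% and 15.5% of all genes). Without Rn45s in the totals the first was 16 lower and 3 higher (6.34% and 13.3% of all genes). The second was then 3 lower and 3 higher (6.07% and 13.3%). The median of the set minus that of all genes stayed at -0.14 and -0.05 under each scaling. Without treated library 3 of 4T1, 16 genes passed in the first difference and 5 in the second.

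Uqcrq and Uqcrh headed these lists in both resistant populations. The response of Uqcrq was lower by -0.6 ± 0.07 in 4T1R1 (adjusted p = 3.2e-08) and -0.41 ± 0.07 in 4T1R2 (adjusted p = 3.3e-05) than in 4T1. The response of Uqcrh was higher by 0.25 ± 0.07 (adjusted p = 0.0088) and 0.44 ± 0.07 (adjusted p = 5.4e-06). In treated 4T1R2, Uqcrh measured 66.9, 65.2 and 61.7 CPM, against 65.4, 65.1 and 64 untreated. Sdha had a higher response in both (0.13, adjusted p = 0.04, and 0.16, adjusted p = 0.0083), Cox8a a lower response in both (-0.39, adjusted p = 5.7e-06, and -0.25, adjusted p = 0.0022), and Atp5k a higher response in 4T1R2 (0.29, adjusted p = 0.027), with -0.05 in 4T1R1 (adjusted p = 0.81). The Sdha call in 4T1R1 was lost on leaving out most of the libraries concerned (0.12 to 0.14), and that of Atp5k in 4T1R2 on leaving out untreated 4T1 library 1, treated 4T1 library 3, untreated 4T1R2 library 1 or 3 or treated 4T1R2 library 1 or 2 (0.25 to 0.28). Fits without treated 4T1 library 3 rest on 1 treated 4T1 sample. They gave -0.47 for Atp5sl in 4T1R1 and -0.21 for Cox7a2l in 4T1R2. Without untreated 4T1R1 library 1, Atp5sl in 4T1R1 no longer passed (-0.43).

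**Figure D4:**
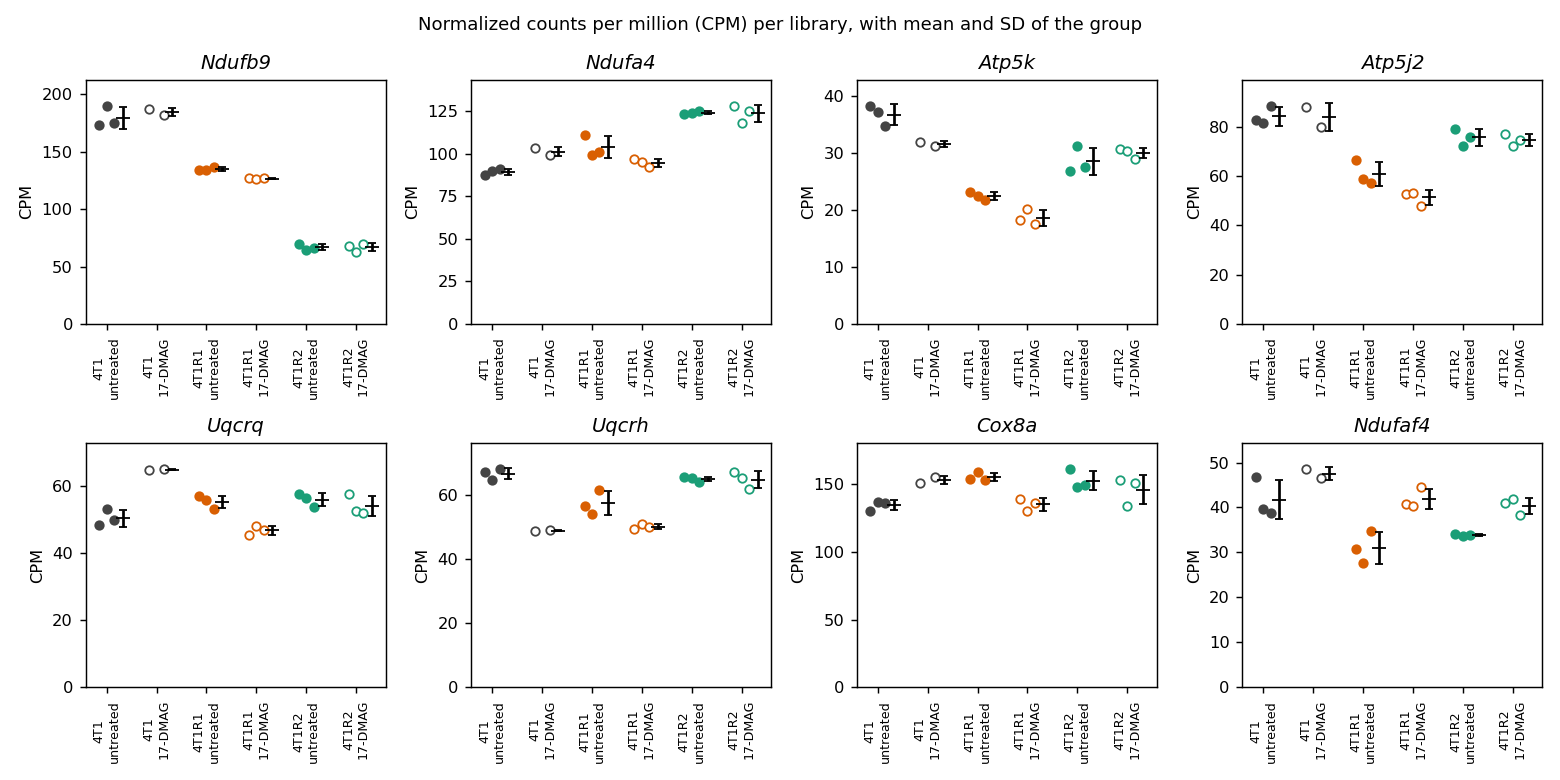
Level in CPM of 8 genes in each library (points, filled untreated and open treated) by group, with mean and SD; treated 4T1 has n = 2. Ndufb9 is lowest in 4T1R2, Uqcrq is highest in treated 4T1, and Uqcrh is lowest in treated 4T1 and treated 4T1R1.

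Complex by complex, the level per library was summarised as the median over subunits of log2 CPM relative to untreated 4T1. Complex IV gave 0 ± 0.01 (SD, n = 3) in untreated 4T1, -0.08 ± 0.02 (n = 3) in untreated 4T1R1 and 0.06 ± 0.01 (n = 3) in untreated 4T1R2. After the drug it was 0.095 ± 0.00077 (n = 2) in 4T1, -0.19 ± 0.03 (n = 3) in 4T1R1 and 0.04 ± 0.02 (n = 3) in 4T1R2. Complex V gave -0.14 ± 0.06 in untreated and -0.21 ± 0.02 in treated 4T1R1, against 0.12 ± 0.03 and 0.14 ± 0.02 in 4T1R2 (n = 3 each). In both complexes the 4T1R1 libraries, treated and untreated, lay below all untreated 4T1 libraries.

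**Figure D5:**
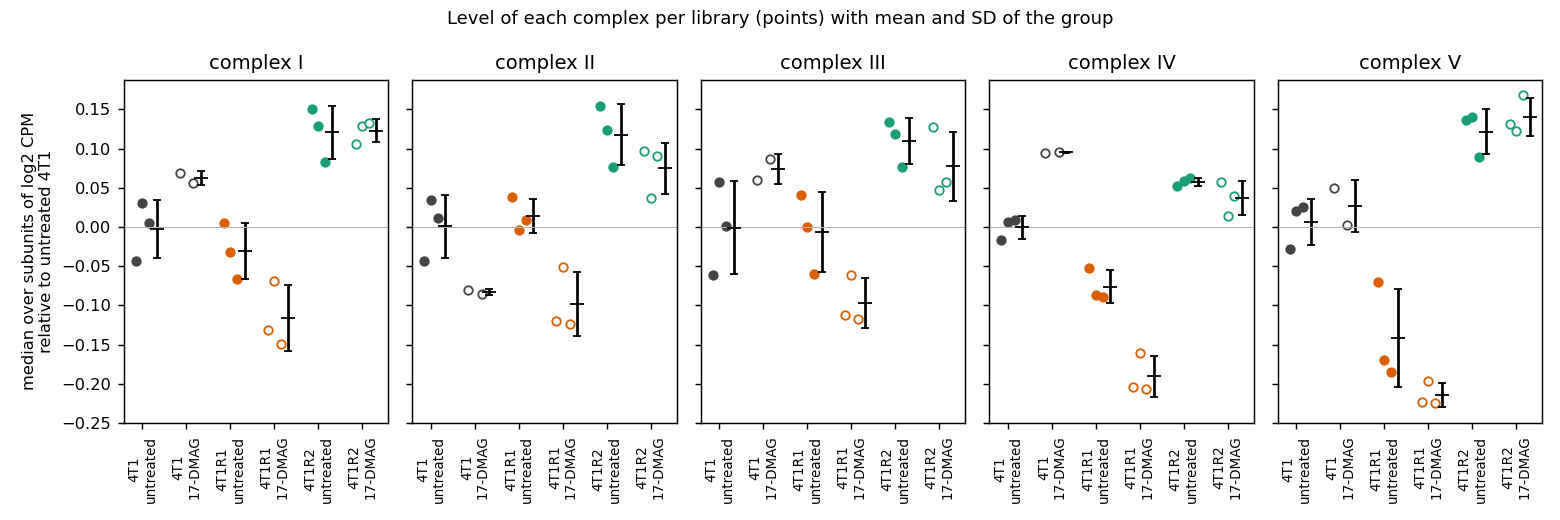
Median over the subunits of each complex of log2 CPM relative to untreated 4T1, per library (points, filled untreated and open treated), with mean and SD of the group; treated 4T1 has n = 2. In complexes IV and V the 4T1R1 libraries lie below 0, and treated 4T1R1 has the lowest means in all 5 complexes.

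Other genes of the pathway were read from lists set by function, beside the shares of all genes given above for each comparison (25.2% higher and 27.5% lower in untreated 4T1R1, 25.6% and 26.9% in untreated 4T1R2). In complex IV assembly, 0 of 21 genes were higher and 9 lower in untreated 4T1R1, and 4 were higher and 4 lower in 4T1R2. Coa5, an assembly factor of complex IV, rose on 17-DMAG in 4T1, 4T1R1 and 4T1R2 (0.17, 0.17 and 0.16), as did Sco1, a copper chaperone of complex IV (0.2, 0.26 and 0.18). Of 15 cytochrome c, Cyc1 and coenzyme Q genes, 4 were higher and 6 lower in 4T1R1 and 6 higher and 2 lower in 4T1R2. Coq2, of coenzyme Q synthesis, was lower in both (-0.29 and -0.63). Of 14 regulators of mitochondrial biogenesis, 3 were higher and 7 lower in 4T1R1 and 3 higher and 4 lower in 4T1R2, the latter near the shares of all genes. Gabpa, a subunit of GABP, gave -0.42 and -0.15, and Gabpb1, its partner, gave -0.23 and -0.46. In the citric acid cycle 9 of 17 genes were lower and 1 higher in 4T1R1, and 4 lower and 7 higher in 4T1R2. Mdh2, malate dehydrogenase, was lower in both (-0.33 and -0.14).

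Cytosolic and mitochondrial ribosomal protein genes were set beside the respiratory genes. In untreated 4T1R1, 56 of 76 cytosolic ribosomal protein genes were lower and 1 higher (median -0.16), and 29 of 74 mitochondrial ones were lower and 7 higher (median -0.1). In untreated 4T1R2, 32 cytosolic ones were higher and 19 lower (median 0.06), and 21 mitochondrial ones were higher and 13 lower (median 0.06). After 17-DMAG, 59 cytosolic ribosomal protein genes were higher and 0 lower in 4T1 (median 0.14), and 0 were higher and 25 lower in 4T1R1 (median -0.05). The mitochondrial chaperones Hspe1 and Hspd1 rose on the drug in all 3 populations, by 1.27, 0.82 and 0.57 and by 1.11, 0.78 and 0.53 in 4T1, 4T1R1 and 4T1R2. Of 18 glycolysis genes, 13 passed as higher without drug in 4T1R1 and 14 in 4T1R2, with none lower in either, and after the drug 14 were lower and 0 higher in 4T1R1.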

How the data were processed

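The 18 libraries of total RNA were ribosomal-RNA-depleted and stranded. Per the study's methods, the authors aligned reads with STAR to mm10/GRCm38 and counted them per gene with featureCounts. The submitters' processing notes also name bcl2fastq 2.20 and Subread 1.6.2. The deposited table holds raw counts per gene and library, not normalized.

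Counts were tested with edgeR 4.0.16 in R 4.3.3 (quasi-likelihood test, TMM scaling, filterByExpr, 1 fit over 6 groups and 17 samples, Benjamini-Hochberg adjustment over 13507 genes, threshold 0.05). The replicates are labelled biological. The test was checked on simulated data with changes larger than most of those reported here, so the check does not cover the smaller ones. CPM are TMM-scaled. Exon lengths are unions of RefSeq-paired GENCODE transcripts, and positions come from RefSeq on GRCm38.p6. Figures used matplotlib.

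The genes and lists were chosen with earlier results of these data known. Named genes were the 3 largest called changes per direction and comparison with non-overlapping libraries, catalytic subunits, isoform pairs, genes next to the count threshold, the highest and lowest per complex, and up to 4 per list called in both untreated or all 3 treatment comparisons. Neighbouring genes, the promoters shown and the NRF1 letters were chosen after values were seen. Alternatives covered scaling, filters, DESeq2 1.42.0, a replicate block and leaving out each library. Same-numbered libraries did not deviate together. Some genes that this rule names are not reported here.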

Additional observations from a re-analysis of the deposited data

Results flagged for a closer look

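The results listed here drew attention because the response to 17-DMAG differed between a resistant population and parental 4T1 by the test of that difference itself (edgeR's quasi-likelihood test, adjusted p under 0.05 over all genes tested), and each value is the log2 fold change on 17-DMAG in the resistant population minus that in 4T1. In 4T1R1 the response was higher in 2 genes of the set and lower in 26. Those among the named genes were Uqcrq -0.6, Atp5sl -0.48, Atp5e -0.44, Cox8a -0.39, Cox5b -0.33, Ndufa4 -0.31, Atp5g2 -0.3, Ndufa5 -0.29, Ndufb7 -0.28, Uqcrc1 -0.27, Cox6a1 -0.26, Atp5j2 -0.24, Cox7a2l -0.22, Atp5b -0.2, Cox6b1 -0.2, Cox7a2 -0.2 and Cox4i1 -0.17, with Sdha at 0.13 and Uqcrh at 0.25. In 4T1R2 it was higher in 3 and lower in 9. The named ones were Uqcrq -0.41, Cox8a -0.25, Cox7a2l -0.23, Ndufv1 -0.2, Cox6a1 -0.2, Ndufa4 -0.18, Uqcrc1 -0.18 and Atp5b -0.11, with Sdha at 0.16, Atp5k at 0.29 and Uqcrh at 0.44. Both sets of differences rest on the same 2 treated samples of 4T1.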

How the results depend on the processing

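With total counts alone, 14 genes of the set passed on 17-DMAG in 4T1 (median log2 fold change -0.066), 18 in 4T1R1 (-0.069) and 3 in 4T1R2 (-0.056), and 11 and 7 in the differences of response of 4T1R1 and 4T1R2 (0.006 and 0.017). With totals without Rn45s, an alternative chosen after seeing the data, 14 passed in 4T1 (-0.023), 2 in 4T1R2 (-0.042) and 6 in the response of 4T1R2 (-0.012); the medians were 0.037 in untreated 4T1R1 and -0.095 in the response of 4T1R1. The median of the set minus that of all genes was -0.14 in the response of 4T1R1 under each scaling tried. In 4T1R2 the drug called 2 genes with at least 10 counts in every library, with DESeq2 or with 18 separate libraries, and 0 among subunits only. Leaving out each library gave 35 to 42 called genes in untreated 4T1R1 (median -0.06 to -0.013), 40 to 51 in untreated 4T1R2 (0.086 to 0.126), 10 to 24 on the drug in 4T1 (0.047 to 0.063), 21 to 35 in 4T1R1 (-0.124 to -0.081), 0 to 3 in 4T1R2 (-0.022 to 0.006), and 16 to 33 (-0.175 to -0.121) and 5 to 14 (-0.067 to -0.04) in the responses of 4T1R1 and 4T1R2. Of 945 values of 35 gene results, 905 kept their side of the threshold, 40 lost it and 0 reversed. These values include leaving out libraries outside the comparison, which removes no sample compared. The 905 thus overstates how firm the calls are. Same-numbered libraries correlated at -0.022 to 0.0466, and 7 of 15 correlated best with their own number, so numbers do not pair the libraries; a replicate block moved calls over all genes from 7174 to 7123 in untreated 4T1R1. Only 2 treated 4T1 samples back the parental response.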
